A study of Danio rerio with 15 samples.

Results

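This account covers 6 of the 15 RNA sequencing libraries of the series, the 3 il34 mutant and the 3 control zebrafish at 1.5 months post fertilization (mpf), which were chosen by their labels alone. Each library came from the mpeg1-GFP+ cells of a single fish, sorted by flow cytometry. The il34 mutants were il34 re03/re03 and the controls were wildtype for il34, and both carried tg(mpeg-GFP), which marks macrophages and other mpeg1-expressing cells. The methods of the study describe the controls as wildtype fish with reporter transgenes only. For control animals they name an mCherry transgene beside the GFP one. Whether the mutants carried it, and whether the controls shared parents with the il34 mutants, is not given in the sources used here. The remaining libraries, used beside them, are 3 csf1rDM fish at 1.5 mpf (csf1ra j4e1/j4e1 and csf1rb re01/re01, so both copies of the receptor gene are mutant), and 3 control and 3 csf1rDM fish at 33 days post fertilization (dpf), all with the same reporter. The titles of the 1.5 mpf libraries read 5 mo, whereas their stage label and the methods of the study give 1.5 mpf. Of 35117 gene identifiers in the count table, 17640 passed the filter on low counts and were tested.

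Il34 is a secreted cytokine that binds the colony stimulating factor 1 receptor, Csf1r, a tyrosine kinase on macrophages and their precursors that drives their survival, division and differentiation. Csf1r has another ligand, Csf1. In mice the ligands are divided by tissue, and Il34, made by keratinocytes and neurons, maintains Langerhans cells of the skin and part of the microglia. Zebrafish carry duplicated receptor genes (csf1ra and csf1rb) and duplicated csf1 genes (csf1a and csf1b), but a single il34. The comparison therefore asks what mpeg1+ cells look like when 1 ligand is missing and the receptors remain.

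The 6 libraries held between 7325021 and 28123979 counts, and 3 reads corresponded to between 0.111 and 0.392 CPM (read counts relative to the library total). Levels are given as CPM scaled by TMM factors (trimmed mean of M values). Control fish 1 stood apart: after thinning all libraries to the same total, 19890 genes had a read in it, against 14442 and 14358 in the other 2 controls and 13757 to 16600 in the il34 fish. Its summed CPM over 50 pancreas, gut and liver genes was 4732, against 684.2 and 512.7 in the other 2 controls and 126.0 to 309.4 in the il34 fish. The il34 transcript was present in both genotypes, with 183, 205 and 91 reads in controls 1 to 3 and 46, 277 and 179 in il34 fish 1 to 3. Those are 11.5 to 22.0 CPM against 6.02 to 19.2 CPM, and the ranges overlapped (log2 fold change -0.59 ± 1.35 SE, adjusted p = 0.982), so its level does not check the genotype labels.

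Between il34 and control fish, 121 genes passed an adjusted p of 0.05 (quasi-likelihood test in edgeR, p-values adjusted by the Benjamini-Hochberg method), 0.686% of those tested, and 64 were higher (0.363%) and 57 lower (0.323%) in the mutants. All 121 had il34 values that did not overlap the control values, which held for 20.1% of all genes tested (9.49% with the il34 fish above and 10.6% with them below). The higher genes had changes from 0.67 to 4.49 on the log2 scale with a median of 1.57, and they include 5 unfolded protein response genes and 8 ribosome biogenesis genes. The lower genes fell into 11 that were nearly or wholly without reads in the il34 fish and 46 others with a median log2 fold change of -1.63, among them 6 lysosomal genes and 3 immediate early genes. Over all genes tested the median log2 fold change was -0.12, and it was -0.01 when only library size was used for scaling, where 130 genes were called and 33.1% of them were lower instead of 47.1%.

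With the same 3 controls, csf1rDM fish of this age differed at 288 genes (1.63% of those tested), 77 higher (0.437%) and 211 lower (1.2%). The il34 and csf1rDM fish, compared directly and without the controls, differed at 321 genes (1.82%), 168 higher (0.952%) and 153 lower (0.867%) in il34 fish. The number of calls between il34 and control fish rested on individual fish: it was 107 without control 1 and 84 without il34 fish 1, but 24 without control 2, 16 without control 3, 17 without il34 fish 2 and 41 without il34 fish 3. All 121 genes kept their direction in these 6 fits, which the lack of overlap between the groups all but fixed beforehand. Of the 121, 12 were called in all 6 fits and 34 in none.

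**Figure D1:**
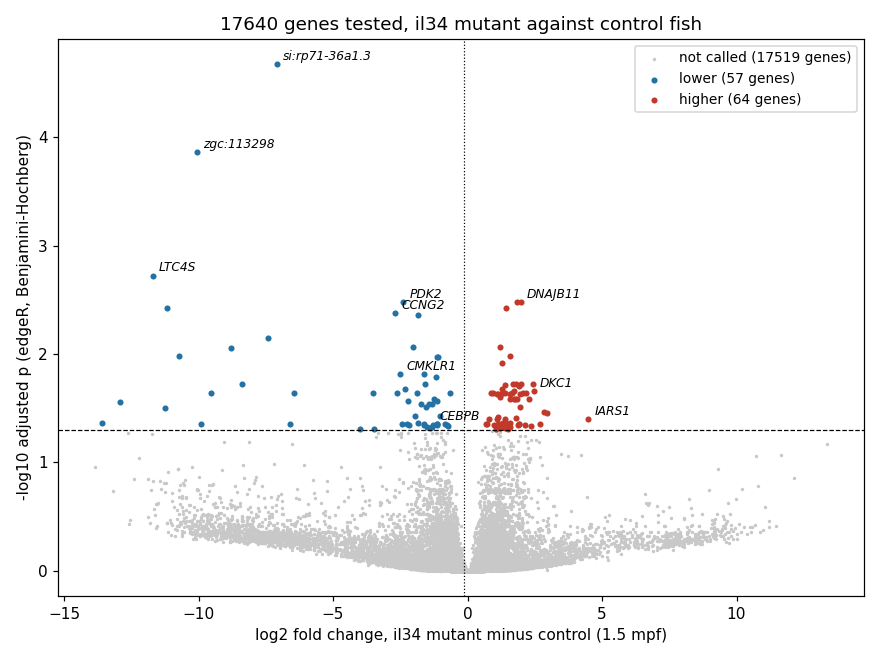
Each point is 1 of the 17640 genes tested, with the log2 fold change of il34 mutants over controls at 1.5 mpf on the x axis and the negative log10 of the adjusted p on the y axis. The dashed line is an adjusted p of 0.05 and the dotted line the median change of -0.12, and the 64 higher genes (red) lie closer to 0 than the farthest of the 57 lower genes (blue), while si:rp71-36a1.3, at -7.08, is the highest point.

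The receptors came first, since their ligand was the mutated gene. For csf1ra, CPM values were 197.7, 114.7 and 206.2 in controls 1 to 3 and 43.7, 24.6 and 71.0 in il34 fish 1 to 3. Every il34 fish lay below every control, yet the change did not pass the test (log2 fold change -1.90 ± 1.36 SE, adjusted p = 0.679). In csf1rDM fish of the same age csf1ra had 0, 0.0346 and 0 CPM, and il34 and csf1rDM fish differed (adjusted p = 0.0337). For csf1rb the values were 243.4, 405.3 and 213.3 in controls and 149.0, 220.6 and 58.7 in il34 fish, which overlapped (-1.01 ± 0.71, adjusted p = 0.668). The ligand genes csf1a and csf1b were seen in single fish, with 26 and 31 reads in control 1, 1 read of csf1a in il34 fish 2, 39 reads of csf1b in il34 fish 1 and none in the other libraries of the 6. In sorted bulk samples, fewer cells of a type and less RNA per cell cannot be told apart, which applies to every level given here.

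The reporter gene was not called. For mpeg1, the perforin-like gene whose promoter drives the GFP, the copy ENSDARG00000055290 had 3450, 3788 and 3248 CPM in controls and 3801, 4978 and 3525 CPM in il34 fish (log2 fold change 0.23 ± 0.23, adjusted p = 0.86). The copy ENSDARG00000043093 had 136.7, 211.2 and 238.4 CPM in controls and 33.0, 28.2 and 0 CPM in il34 fish. All 3 mutants were below all controls, but this copy was not called (-3.26 ± 1.09, adjusted p = 0.248), and reads shared by the copies could be assigned to either.

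The smallest adjusted p was that of si:rp71-36a1.3 (ENSDARG00000071662), a gene known by its clone name only and singled out after its values were seen. Its CPM was 223.4, 268.9 and 246.3 in controls and 1.83, 2.62 and 0.860 in il34 fish, with no overlap. The change was -7.08 ± 0.47 on the log2 scale (adjusted p = 2.12e-05). In csf1rDM fish it had 222.7, 310.7 and 233.6 CPM, among the control values (0.05 ± 0.36, adjusted p = 0.996), and the 33 dpf controls had a mean of 162.5 CPM.

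A set of 11 called genes had at most 3 reads in the 3 il34 fish together, and 6 of them had none. They include several with known products: LTC4S, the synthase of the inflammatory lipid leukotriene C4, CAVIN2 (ENSDARG00000027611), a coat protein of caveolae, MINPP1 (ENSDARG00000057058), a phosphatase of inositol phosphates, OPRD1 (ENSDARG00000037159), an opioid receptor, and cldne, a claudin of tight junctions. LTC4S had 20.3, 40.4 and 9.06 CPM in controls and 0 reads in all 3 il34 fish, at least 342-fold lower against a floor of 3 reads over the group. On the same floor OPRD1 was at least 799-fold lower, zgc:171695 at least 1260-fold, cldne at least 251-fold, ENSDARG00000106212 at least 98.0-fold and MINPP1 at least 76.5-fold. Floors and intervals here cover counting error only.

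The other 5 had 1 or 2 reads among the il34 fish. The control to il34 ratio was 1310 for zgc:113298 (95% counting interval 362 to 10800), 3450 for aste1a (619 to 136000), 2050 for si:ch211-209l18.4 (367 to 80800), 502 for CAVIN2 (90.01 to 19800) and 488 for MCF2L (ENSDARG00000075859; 135 to 4030). These genes were present in nearly every other fish of the series. Over the 12 fish that are not il34 mutants, LTC4S ran from 8.11 to 156.9 CPM with a median of 44.6, aste1a from 10.6 to 125.3 with a median of 44.8, and zgc:113298 from 25.8 to 82.1 with a median of 44.5. OPRD1 had 0 CPM in 1 control at 33 dpf and up to 306 CPM elsewhere. Low values also occurred in zgc:171695, which ran from 0.946 to 241.6 CPM, and in ENSDARG00000106212, from 0.616 to 14.65 CPM.

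Counted over the whole table, 11 genes had at most 3 reads in each il34 fish and at least 10 in each of the other 12, and 0 showed the reverse. Of these, 8 are among the 11 called genes above, and the other 3 are CEMIP2, YPEL1 and BAIAP3, of which only CEMIP2 was called. The same count was 2 for the 33 dpf controls, 11 for csf1rDM at 33 dpf, 0 for the 1.5 mpf controls and 5 for csf1rDM at 1.5 mpf, and the reverse count was 3, 10, 8 and 3. For genes nearly without reads in 1 group, the il34 genotype and other genetic differences between the fish stocks cannot be told apart. The same holds for every other difference between il34 fish and the other groups given here. Of the 11 called genes with almost no reads, LTC4S, aste1a and zgc:113298 were called without any 1 of the 6 fish, whereas CAVIN2 and si:ch211-209l18.4 were called in 5 of those 6 fits, MCF2L in 4, OPRD1 and MINPP1 in 1, and cldne, zgc:171695 and ENSDARG00000106212 in 0.

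**Figure D2:**
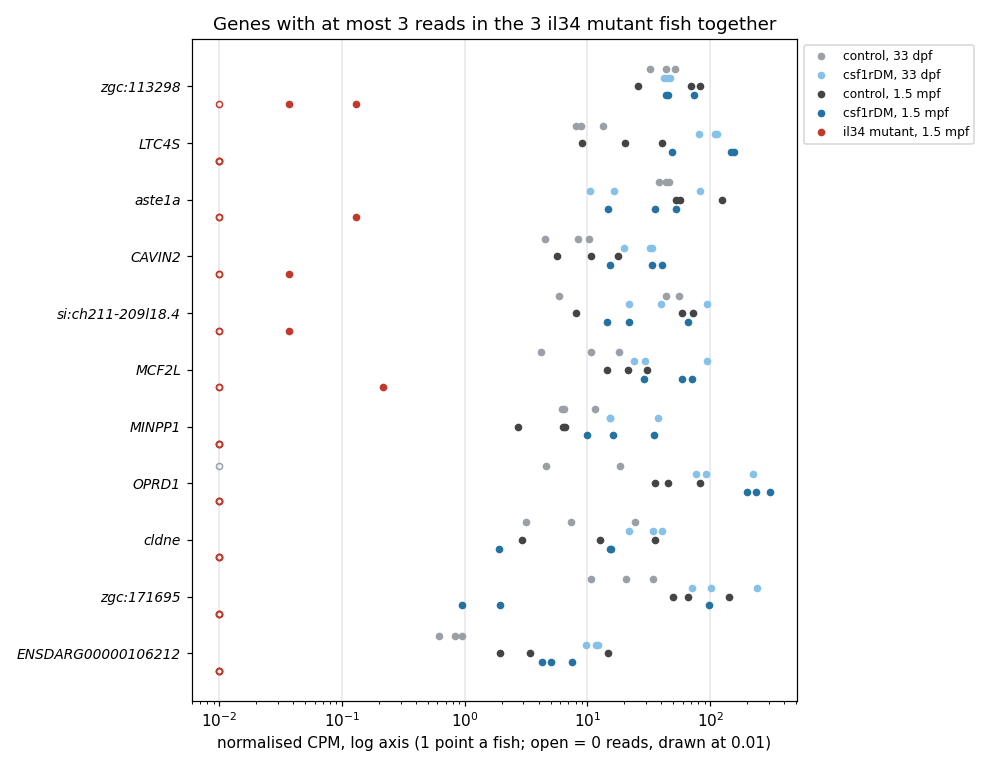
CPM on a log axis for the 11 genes with at most 3 reads in the 3 il34 fish together, with 1 point for each of the 15 fish, and open points for 0 reads, drawn at 0.01. The il34 points (red) lie at 0 reads or at no more than 0.215 CPM for every gene, while the controls and csf1rDM fish of both ages spread over values up to 306 CPM, with 1 control at 33 dpf at 0 reads of OPRD1.

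Among genes that kept a measurable level, the lower ones with the smallest adjusted p include several regulators of metabolism and growth arrest. PDK2 (ENSDARG00000059054), a kinase that restrains pyruvate entry into mitochondrial oxidation, had 1358, 2321 and 1635 CPM in controls and 353, 343 and 317 CPM in il34 fish. It was lower by a log2 fold change of -2.39 ± 0.28 (adjusted p = 0.00333), and csf1rDM fish stood at 393, 448 and 394 CPM (-2.11, adjusted p = 0.00186). CCNG2, a cyclin linked to withdrawal from the cell cycle, had 371, 429 and 405 CPM in controls and 45.9, 49.6 and 93.2 CPM in il34 fish (-2.68 ± 0.34, adjusted p = 0.00421). BTG1, an antiproliferative factor, had 1001, 829 and 1271 CPM in controls and 279, 348 and 387 CPM in il34 fish (-1.61 ± 0.25, adjusted p = 0.0155). All 3 genes were also lower in csf1rDM fish than in the shared controls, and none passed the test between the mutants (adjusted p from 0.33 to 0.884).

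Other lower genes separated the mutants. SLC15A4, a peptide and histidine transporter of the endolysosome, had 532, 759 and 602 CPM in controls and 312, 238 and 301 CPM in il34 fish (-1.15 ± 0.17, adjusted p = 0.0107). In csf1rDM fish it had 728, 853 and 732 CPM, and the mutants differed directly (-1.44, adjusted p = 0.00133). UCP2, an uncoupling carrier of the mitochondrial inner membrane, had 1121, 1177 and 1469 CPM in controls and 555, 725 and 481 CPM in il34 fish (-1.10 ± 0.16, adjusted p = 0.0107), and it too was lower in il34 than in csf1rDM fish (-0.85, adjusted p = 0.0173).

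Further genes among the 12 with the smallest adjusted p were IP6K2 (ENSDARG00000019613), an inositol hexakisphosphate kinase (-1.84 ± 0.24, adjusted p = 0.0044), SGPL1, the lyase that degrades sphingosine 1-phosphate (-2.02 ± 0.28, adjusted p = 0.0086), and CEMIP2, a cell surface protein of hyaluronan turnover. CEMIP2 had 34.5, 50.5 and 16.4 CPM in controls and 0.392, 0.0368 and 0.215 CPM in il34 fish, close to the genes without reads (-7.42 ± 1.00, adjusted p = 0.00714). In csf1rDM fish IP6K2 was also lower than in the same controls (-1.36, adjusted p = 0.00926). SGPL1 (-1.08, adjusted p = 0.0733) and CEMIP2 (0.93, adjusted p = 0.697) were not called there. Between il34 and control fish PDK2, CCNG2, IP6K2 and CEMIP2 were called without any 1 of the 6 fish, UCP2 and SGPL1 in 4 of those 6 fits and BTG1 and SLC15A4 in 3. Some of these calls were lost against the mean of the controls of both ages, a comparison that also holds the age change of the controls. Controls at 33 dpf had 91.1 to 146 CPM of PDK2 and 107 to 121 CPM of IP6K2, below all il34 fish, and 20.8 to 50.05 CPM of CCNG2, which overlapped them. Against the mean of the controls of both ages the changes were -0.47 for PDK2 (adjusted p = 0.544), -0.92 for CCNG2 (adjusted p = 0.275) and -0.72 for IP6K2 (adjusted p = 0.217), whereas CEMIP2 (-7.28, adjusted p = 0.00876) and SGPL1 (-1.66, adjusted p = 0.0255) were still called.

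**Figure D3:**
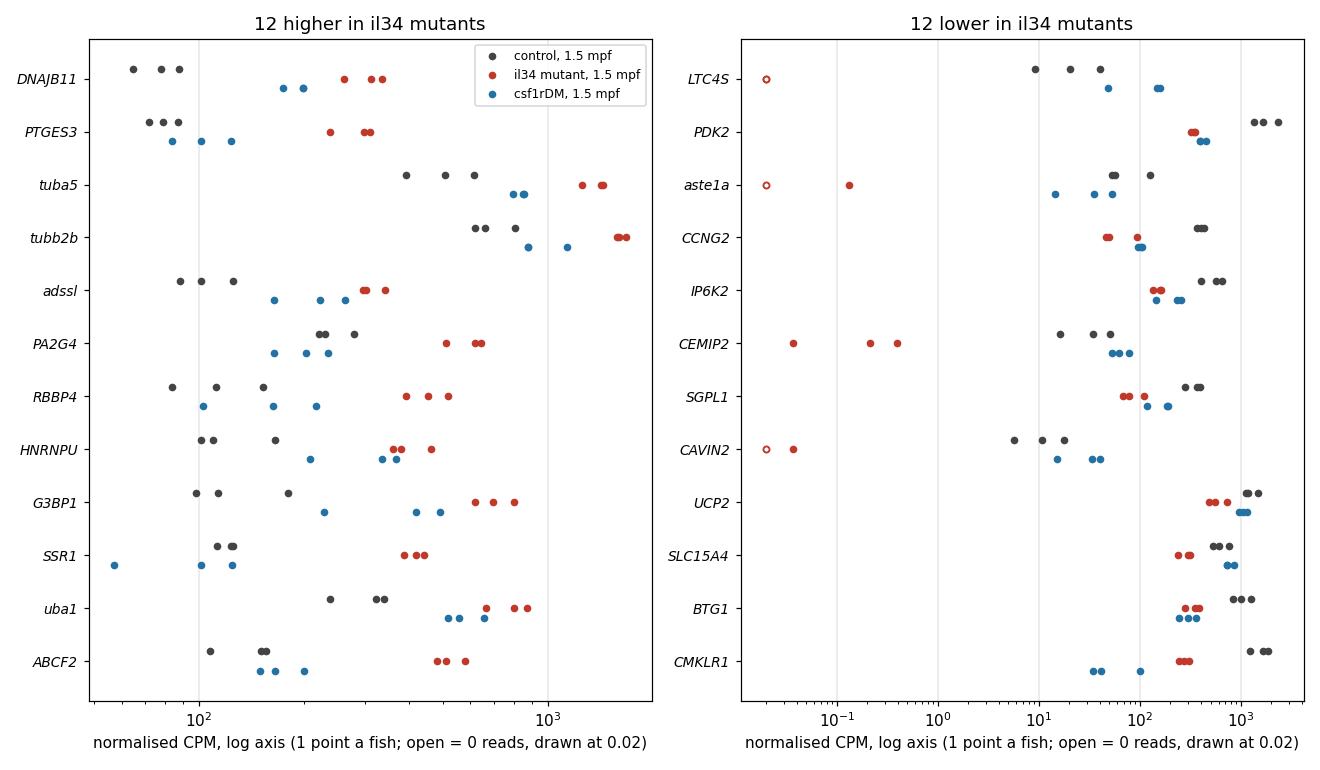
CPM on log axes for the 12 higher (left) and 12 lower (right) genes with the smallest adjusted p that have a gene name, with 1 point a fish for controls (black), il34 mutants (red) and csf1rDM (blue) at 1.5 mpf, and open points for 0 reads drawn at 0.02. For DNAJB11 the controls lie between 64.7 and 87.4, the csf1rDM fish between 174.7 and 199.4 and the il34 fish between 260.7 and 335.0.

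Of 32 macrophage and myeloid genes tested, 0 were higher and 2 were lower (6.25%, beside 0.323% of all genes), CEBPB and CMKLR1, with a median log2 fold change of -0.31 against -0.12 over all genes. The myeloid transcription factor gene spi1a (PU.1) had 1797, 1865 and 1896 CPM in controls and 1777, 1937 and 1817 CPM in il34 fish (-0.01 ± 0.11, adjusted p = 1). CEBPB, a transcription factor of monocyte and macrophage differentiation, had 3583, 3539 and 3914 CPM in controls and 1246, 1409 and 1851 CPM in il34 fish. It was lower by a log2 fold change of -1.29 ± 0.26 (adjusted p = 0.0451), and csf1rDM fish were lower still at 303, 595 and 388 CPM, a difference between the mutants of 1.81 (adjusted p = 0.0053). The 33 dpf controls had a mean of 278 CPM, so against the mean of both control ages the change was 0.57 (adjusted p = 0.42).

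CMKLR1, the receptor for the chemoattractant chemerin, followed the same order. It had 1233, 1843 and 1638 CPM in controls, 245, 307 and 275 CPM in il34 fish and 100, 40.8 and 34.6 CPM in csf1rDM fish. The il34 change was -2.51 ± 0.39 (adjusted p = 0.0155), and il34 fish were above csf1rDM fish by 2.24 (adjusted p = 0.0109). The relative CEBPA, chosen after its values were seen, had 1484, 1420 and 1484 CPM in controls, 1264, 1152 and 1109 CPM in il34 fish and 106.3, 89.0 and 143.9 CPM in csf1rDM fish. It was not called against controls (-0.32, adjusted p = 0.699) but differed between the mutants (3.38, adjusted p = 3.1e-05). In the 6 fits without 1 fish CEBPB was called in 0 (adjusted p up to 0.2) and CMKLR1 in 2, those without control 1 or il34 fish 1 (adjusted p up to 0.0804 in the other 4).

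None of 37 phagocytosis genes tested was called. In every il34 fish 16 were below all controls, beside 10.6% of all genes, and none was above. Their summed CPM was 3320 to 4150 in il34 fish and 5990 to 8130 in controls, and the median log2 fold change was -0.63. The same sum was 3740 to 4980 in controls at 33 dpf and 3170 to 3380 in csf1rDM fish of the same age as the il34 fish. Both of these ranges overlapped that of the il34 fish, so the sum set il34 fish apart only from controls of their own age. The complement gene c1qc had 1021, 1166 and 1457 CPM in controls and 469, 577 and 533 CPM in il34 fish (-1.21 ± 0.67, adjusted p = 0.523). It was nearly absent from csf1rDM fish at 23.1, 5.64 and 33.4 CPM, and the mutants differed by 4.67 (adjusted p = 0.00897). The scavenger receptor gene marco had 482, 664 and 1048 CPM in controls and 181, 211 and 155 CPM in il34 fish (-2.01 ± 1.04, adjusted p = 0.497), against 13.5 to 17.2 CPM in csf1rDM fish. In the direct comparison of the mutants, 8 of the 37 were higher and 3 lower in il34 fish, beside 0.952% and 0.867% of all genes. Those higher include c1qa, c1qb, stab1 and mertka, genes of complement, scavenging and the uptake of dying cells, and those lower are MFGE8, VAMP8 and cd9b, all named after their values were seen.

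Lysosomal enzymes were among the lower genes. Of 40 genes of the lysosome and lipid handling, CTSB and CTSD, which encode the proteases cathepsin B and D, were called lower and none higher (median -0.50). A wider family of 81 lysosomal hydrolases and membrane proteins, assembled after the data had been seen, held 6 lower and 0 higher genes with a median of -0.60, and 32 members were below all controls. Among all genes tested, 0.323% were called lower and 10.6% were below all controls. CTSB had 1277, 1664 and 1768 CPM in controls and 583, 803 and 675 CPM in il34 fish (-1.19 ± 0.19, adjusted p = 0.0164). CTSD had 1034, 1398 and 1573 CPM in controls and 460, 628 and 438 CPM in il34 fish (-1.39 ± 0.29, adjusted p = 0.0488). The other 4 were the serine peptidases CPVL (-1.25, adjusted p = 0.0261) and DPP7 (-1.14, adjusted p = 0.0451), the ceramidase ASAH1 (ENSDARG00000034817; -1.12, adjusted p = 0.0444) and the ganglioside activator GM2A (ENSDARG00000088439; -0.83, adjusted p = 0.0444). GM2A differed between the mutants, with 387, 459 and 488 CPM in il34 fish and 1033, 1007 and 1517 CPM in csf1rDM fish (-1.41, adjusted p = 0.00156). In csf1rDM fish 5 of the 81 were lower than in the same controls and 1 was higher, beside 1.2% and 0.437% of all genes. Those lower include CTSD (-2.57, adjusted p = 9e-04), DPP7 (-1.84, adjusted p = 0.00171), CPVL (-1.40, adjusted p = 0.00637) and ASAH1 (-0.99, adjusted p = 0.0445). CTSB (-0.71, adjusted p = 0.0833) and GM2A (0.58, adjusted p = 0.128) were not called there. The family kept 5 calls without control 1 and 0 without any of the other 5 fish, and its median stayed between -0.72 and -0.47. Its summed CPM was 16100 to 19900 in il34 fish, 20700 to 28800 in controls of the same age and 20600 to 28000 in csf1rDM fish of that age. Controls at 33 dpf had 14500 to 18600 CPM, which overlapped the il34 fish. Against the mean of the controls of both ages the family had 0 calls and a median of -0.37.

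A pair of genes of the oxidative stress response, NFE2L2 and HMOX1, were lower, and both were named after their values were seen. NFE2L2, the transcription factor Nrf2, had 764, 884 and 1061 CPM in controls and 422, 368 and 283 CPM in il34 fish (-1.34 ± 0.24, adjusted p = 0.0293). In csf1rDM fish it was 981, 1123 and 975 CPM, above the il34 fish (-1.52, adjusted p = 0.00818). HMOX1, the haem-degrading enzyme that Nrf2 is known to induce, had 119, 117 and 318 CPM in controls and 38.1, 29.6 and 21.9 CPM in il34 fish (-2.63 ± 0.45, adjusted p = 0.0232). Unlike NFE2L2, it was also below all controls in csf1rDM fish, at 72.7, 52.3 and 48.0 CPM, though not called (-1.68, adjusted p = 0.0879). The test of HMOX1 between the mutants did not pass (-0.95, adjusted p = 0.322). Controls at 33 dpf had 338.7 to 731.6 CPM of NFE2L2 and 37.88 to 75.23 CPM of HMOX1. Both ranges lay below all 1.5 mpf controls and overlapped the il34 fish. In the 6 fits without 1 fish NFE2L2 was called in 1 and HMOX1 in 3.

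Immediate early genes, which respond within minutes to cell handling and signals, were lower in part. Of 54 tested, 3 were lower and 0 higher, beside 0.323% of all genes called lower. In every il34 fish 19 were below all controls, beside 10.6% of all genes, and the median was -0.80. DUSP1, a phosphatase that switches off MAP kinases, had 1533, 1496 and 936 CPM in controls and 281, 484 and 522 CPM in il34 fish (-1.62 ± 0.32, adjusted p = 0.0444). The other 2 were BTG1 and ZFP36L1 (ENSDARG00000016154), an RNA-binding protein that destabilises cytokine mRNAs (-0.78 ± 0.16, adjusted p = 0.045). In csf1rDM fish of the same age 3 of the 54 were lower and 0 higher than in the same controls (median -0.54), beside 1.2% and 0.437% of all genes. They include BTG1 and ZFP36L1 (-0.94, adjusted p = 0.00898) but not DUSP1 (-0.70, adjusted p = 0.366). The summed level of the list was 7010 to 8870 CPM in il34 fish, 9170 to 10600 CPM in csf1rDM fish and 14400 to 16900 CPM in 1.5 mpf controls. In the 33 dpf controls it was 4990 to 6480 CPM, below all of these. Against the mean of both control ages the DUSP1 change was 0.73 (adjusted p = 0.38). Of 36 inflammatory genes only nfkbiab, an inhibitor of NF-kB that NF-kB itself induces, was called, at 1162, 1343 and 1379 CPM in controls and 416, 772 and 558 CPM in il34 fish (-1.15 ± 0.23, adjusted p = 0.0444). Without control 1 the median of the immediate early list was -0.31 and 1 member was called, and without control 3, il34 fish 1 or il34 fish 2 none was. Neither DUSP1 nor nfkbiab was called in any of the 6 fits without 1 fish.

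The higher genes include chaperones of the endoplasmic reticulum. Of 28 unfolded protein response and folding genes tested, 5 were higher and 0 lower, beside 0.363% of all genes called higher. In every il34 fish 15 were above all controls, beside 9.49% of all genes, and the median log2 fold change was 1.07. DNAJB11, a co-chaperone of BiP, had 78.1, 64.7 and 87.4 CPM in controls and 310, 261 and 335 CPM in il34 fish (1.98 ± 0.24, adjusted p = 0.00333). HSP90B1, the chaperone GRP94, had 375, 420 and 593 CPM in controls and 1275, 1581 and 1313 CPM in il34 fish (1.59 ± 0.28, adjusted p = 0.0233). The lectin chaperone genes calr3a (1.21, adjusted p = 0.0488) and calr3b (85.01 to 173.8 CPM in controls and 325 to 522 CPM in il34 fish, adjusted p = 0.0387) and the disulfide isomerase PDIA3 (0.96, adjusted p = 0.0232) were the others called.

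HSPA5, which encodes BiP itself, lay just outside the threshold, with 304, 270 and 193 CPM in controls and 1406, 1277 and 1195 CPM in il34 fish (2.34 ± 0.51, adjusted p = 0.0621), and so did CANX, calnexin (0.89 ± 0.19, adjusted p = 0.0516). Beside the 15 members above all controls, 5 were below all controls in every il34 fish and the rest overlapped them. XBP1, a transcription factor of the response, had 1099, 1011 and 1082 CPM in controls and 1173, 1056 and 948 CPM in il34 fish (-0.01, adjusted p = 1), and atf4b was at 340 to 419 CPM in controls and 224 to 272 CPM in il34 fish (-0.56, adjusted p = 0.269). Beyond the list, SSR1, a subunit of the translocon-associated complex, had 125, 124 and 112 CPM in controls, 443, 418 and 387 CPM in il34 fish (1.79 ± 0.29, adjusted p = 0.019) and 57.2 to 124 CPM in csf1rDM fish, below the il34 fish (2.14, adjusted p = 0.00316). The cargo receptor gene TMED9 (1.27, adjusted p = 0.0211), the oligosaccharyltransferase subunit gene DDOST (1.21, adjusted p = 0.0252) and PRDX4, a peroxiredoxin of the endoplasmic reticulum (0.98, adjusted p = 0.0451), were also higher. In csf1rDM fish, 2 of the 28 list members were higher than the same controls, beside 0.437% of all genes, and the list's median was 0.58. They were calr3b (2.31, adjusted p = 0.00446) and DNAJB11 (1.32, adjusted p = 0.0111). Beyond the list DDOST was also higher there (0.97, adjusted p = 0.0379), while TMED9 (adjusted p = 0.116) and PRDX4 (adjusted p = 0.919) were not called. The il34 count of 5 was 3 without control 1 or il34 fish 1, 2 without il34 fish 3 and 1 without control 2, control 3 or il34 fish 2. In the same 6 fits SSR1 and TMED9 were called in 3, DDOST in 2 and PRDX4 in 0.

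Among genes that build ribosomes several were higher, and among those of the ribosomal proteins none was called. The families of ribosome biogenesis, ribosomal proteins, mitochondrial import, proteasome, tRNA synthetases, initiation factors and chaperonins were assembled by gene name after the data had been seen. Of 96 ribosome biogenesis factors, 8 were higher and 0 lower, beside 0.363% of all genes called higher. Above all controls were 50, beside 9.49% of all genes, 88 had a positive change, and the median log2 fold change was 1.05. DKC1, the pseudouridine synthase dyskerin, had 94.2, 48.8 and 53.7 CPM in controls and 383, 354 and 351 CPM in il34 fish (2.47 ± 0.41, adjusted p = 0.0222). The nucleolar chaperone gene npm1a, nucleophosmin, had 404, 154 and 248 CPM in controls and 1106, 1043 and 969 CPM in il34 fish (1.95 ± 0.34, adjusted p = 0.0233). FBL, the rRNA methyltransferase fibrillarin, had 81.5, 76.3 and 83.2 CPM in controls and 268, 218 and 313 CPM in il34 fish (1.73 ± 0.31, adjusted p = 0.0261). The others were mybbp1a (2.17), MAK16 (2.27), pdcd11 (1.86), nolc1 (2.35) and GNL3 (1.58), with adjusted p from 0.0232 to 0.0469.

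In csf1rDM fish the calls in these families were lower ones. None of the 96 was higher and 2 were lower than in the same controls, with a median of -0.12, and 11 of the 96 were higher and 0 lower in il34 than in csf1rDM fish. For npm1a the csf1rDM values were 271, 244 and 255 CPM, and the mutants differed by 2.02 (adjusted p = 0.0103). The 81 cytosolic ribosomal protein genes had 0 calls in either direction between il34 and control fish and a median of -0.16, close to that of all genes. In csf1rDM fish 31 of these 81 were lower than in controls, and 27 were lower than in il34 fish. Among all genes tested these shares were 1.2% and 0.952%.

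Calls in other families of protein production and quality control were in the higher direction. Among all genes tested, 0.363% were called higher and 9.49% were above all controls. Of 38 genes for mitochondrial protein import and mitochondrial chaperones, 4 were higher and 0 lower (median 1.08): HSPA9, HSPD1, GRPEL1 and TIMM10. TIMM10, a chaperone of the intermembrane space, had 9.37, 5.54 and 5.54 CPM in controls and 53.5, 59.4 and 44.3 CPM in il34 fish (2.94 ± 0.56, adjusted p = 0.0348). Of 46 proteasome subunits 2 were higher, PSMC4 and PSMD8, and 28 were above all controls (median 0.56). Of 17 cytosolic tRNA synthetases, 12 were above all controls (median 1.13) and 1 was called, IARS1, the isoleucyl-tRNA synthetase, with 11.05, 1.36 and 3.77 CPM in controls and 65.5, 94.2 and 204 CPM in il34 fish (4.49 ± 0.87, adjusted p = 0.0402). Of 64 translation initiation factor genes 1 was higher, EIF4G1 (1.31, adjusted p = 0.0437). None of 9 chaperonin subunits was called, though 7 were above all controls (median 0.85).

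The ribosome biogenesis count was 6 without control 1, 3 without il34 fish 1, 1 without il34 fish 3 and 0 without control 2, control 3 or il34 fish 2, while its median stayed between 0.96 and 1.15. The mitochondrial import count was 0 without any 1 of the 6 fish, with medians of 1.07 to 1.19, and the proteasome count was 0 or 1. IARS1 was called in 2 of those 6 fits and EIF4G1 in 0.

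**Figure D4:**
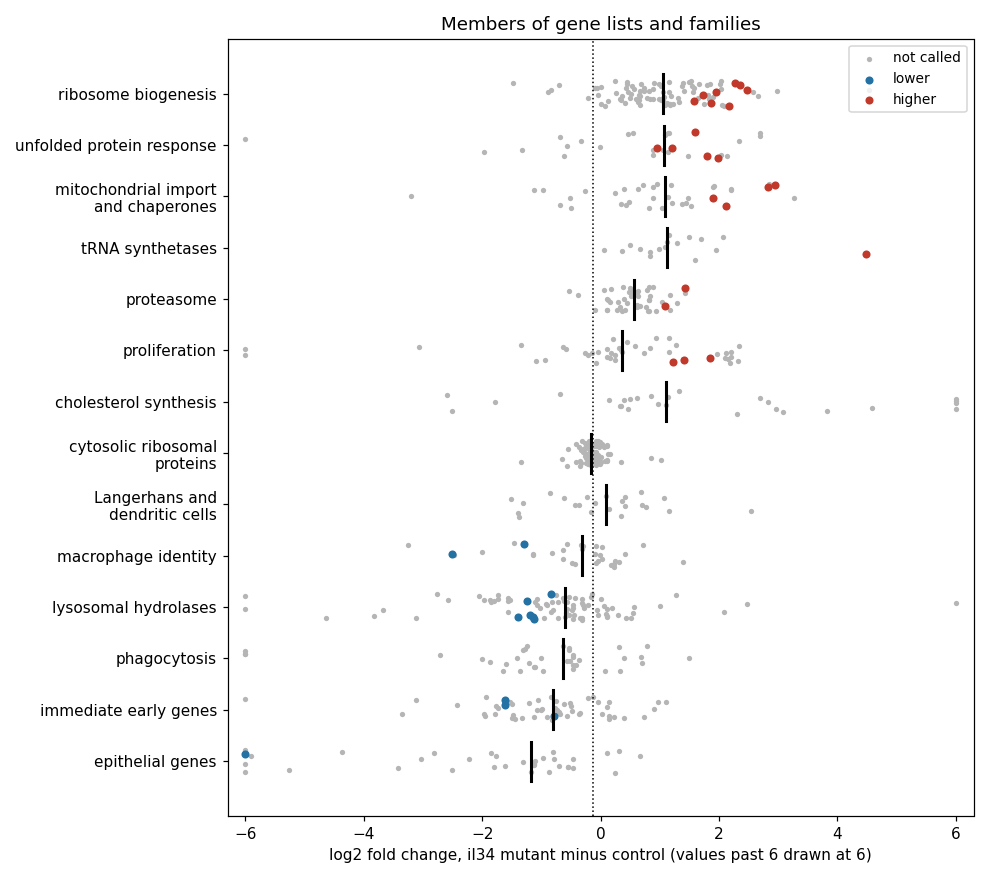
Each point is a gene of the named list or family, at its log2 fold change of il34 mutants over controls, with called genes in red (higher) and blue (lower), medians as black bars and the median of all genes, -0.12, as the dotted line. Ribosome biogenesis (median 1.05) and unfolded protein response (1.07) lie to the right and phagocytosis (-0.63) and immediate early genes (-0.80) to the left, while cytosolic ribosomal proteins (-0.16) lie near the dotted line.

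Higher genes with a small adjusted p outside these families included cytoskeletal and chaperone genes. PTGES3 (ENSDARG00000089626), the Hsp90 co-chaperone p23, had 87.2, 72.1 and 78.7 CPM in controls and 237, 309 and 298 CPM in il34 fish (1.83 ± 0.22, adjusted p = 0.00333). The csf1rDM fish had 124, 83.8 and 101 CPM, below the il34 fish (1.45, adjusted p = 0.0053). The tubulin gene tuba5 had 613, 391 and 509 CPM in controls and 1418, 1445 and 1252 CPM in il34 fish (1.44 ± 0.18, adjusted p = 0.00374), and reads from near-identical tubulin copies can be assigned to one another. PA2G4, a growth-regulated nucleolar and RNA-binding protein, had 230, 221 and 279 CPM in controls, 510, 617 and 644 CPM in il34 fish (1.28 ± 0.19, adjusted p = 0.0122) and 164 to 234 CPM in csf1rDM fish, a difference between the mutants of 1.56 (adjusted p = 0.00172).

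The remaining members of the 12 higher genes with the smallest adjusted p were adssl, adenylosuccinate synthase of purine synthesis (1.58, adjusted p = 0.0104), RBBP4, a histone chaperone (1.97, adjusted p = 0.0188), HNRNPU (ENSDARG00000004735), a nuclear RNA-binding protein (1.68, adjusted p = 0.019), G3BP1, a stress granule protein (2.43, adjusted p = 0.019), uba1, the ubiquitin-activating enzyme (1.38, adjusted p = 0.0194), and ABCF2 (ENSDARG00000038785), an ATPase of the ribosome-associated ABCF family (1.93, adjusted p = 0.02). In csf1rDM fish adssl (1.04, adjusted p = 0.0347) and HNRNPU (1.27, adjusted p = 0.0329) were also higher than in the same controls. RBBP4, G3BP1, uba1 and ABCF2 were not called there (adjusted p from 0.0525 to 0.798). Between il34 and control fish DNAJB11, PTGES3, tuba5 and tubb2b were called without any 1 of the 6 fish, adssl and RBBP4 in 5 of those 6 fits, PA2G4 in 4, G3BP1 and HNRNPU in 3 and uba1 and ABCF2 in 2.

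Genes of DNA replication were higher in part. Of 45 proliferation genes tested, 3 were higher and 0 lower, beside 0.363% of all genes called higher. In every il34 fish 13 were above all controls, beside 9.49% of all genes, and the median was 0.36. PCNA, the sliding clamp of the replication fork, had 340, 254 and 195 CPM in controls and 764, 621 and 720 CPM in il34 fish (1.41 ± 0.24, adjusted p = 0.0232). In csf1rDM fish it was at 329, 276 and 232 CPM, below the il34 fish (1.33, adjusted p = 0.0145). FEN1, the flap endonuclease, had 62.9, 25.2 and 37.7 CPM in controls and 161, 144 and 148 CPM in il34 fish (1.85 ± 0.33, adjusted p = 0.0261). The third was tubb2b (ENSDARG00000098591), a tubulin, with 805, 617 and 662 CPM in controls and 1677, 1580 and 1602 CPM in il34 fish (1.22 ± 0.17, adjusted p = 0.0086).

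The replication helicase genes MCM2 and MCM3 showed larger differences that did not pass. MCM2 had 150, 182 and 162 CPM in controls and 756, 677 and 757 CPM in il34 fish (2.15 ± 0.46, adjusted p = 0.057). MCM3 had 113, 62.0 and 114 CPM in controls and 580, 447 and 416 CPM in il34 fish (2.32 ± 0.57, adjusted p = 0.0915). The chromatin gene HMGB2 overlapped, with 740, 670 and 769 CPM in controls and 691, 773 and 662 CPM in il34 fish (-0.04, adjusted p = 0.999). The count of 3 held without control 1, was 2 without il34 fish 1 and was 1 without any of the other 4 fish. Without control 1 the median of the list was 1.00.

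Controls at 33 dpf lay on the side of the il34 fish for many of the called genes. Summed over ribosome biogenesis genes, CPM was 4520 to 5330 in 1.5 mpf controls, 9780 to 11400 in il34 fish, 4260 to 4550 in csf1rDM fish and 8590 to 14900 in controls at 33 dpf. Summed over proliferation genes it was 3390 to 4380 in 1.5 mpf controls, 6720 to 7730 in il34 fish, 4110 to 4260 in csf1rDM fish and 6300 to 8950 in 33 dpf controls. In both sums the il34 fish overlapped the 33 dpf controls and lay above all 1.5 mpf controls. Of the 64 higher genes, all 3 of the 33 dpf controls lay above all 1.5 mpf controls for 58, and all 3 of the csf1rDM fish at 1.5 mpf did so for 30. Of the 57 lower genes, all 3 of the 33 dpf controls lay below all 1.5 mpf controls for 35, and all 3 of the csf1rDM fish for 32. These counts use the 1.5 mpf controls that chose the genes, so they describe the levels and carry no test. The same separation was not counted over all genes tested, so no such share stands beside them. How far they reflect a general difference between these groups was not tested.

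Against the mean of the controls of both ages, 32 genes were called, 18 higher and 14 lower, and 21 of the 121 were among them. Of the 12 higher and 12 lower genes with a name and the smallest adjusted p, 5 and 5 were called in that comparison, DNAJB11, PTGES3, tuba5, SSR1 and ABCF2 and LTC4S, aste1a, CEMIP2, SGPL1 and CAVIN2. The ribosome biogenesis family then had 0 calls and a median of 0.40, the proliferation list 0 calls and a median of -0.01, and the unfolded protein response list 2 higher genes and a median of 0.73. Fish mutant for il34 at 33 dpf were not analysed here, so a difference between stages within that genotype was not tested.

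**Figure D5:**
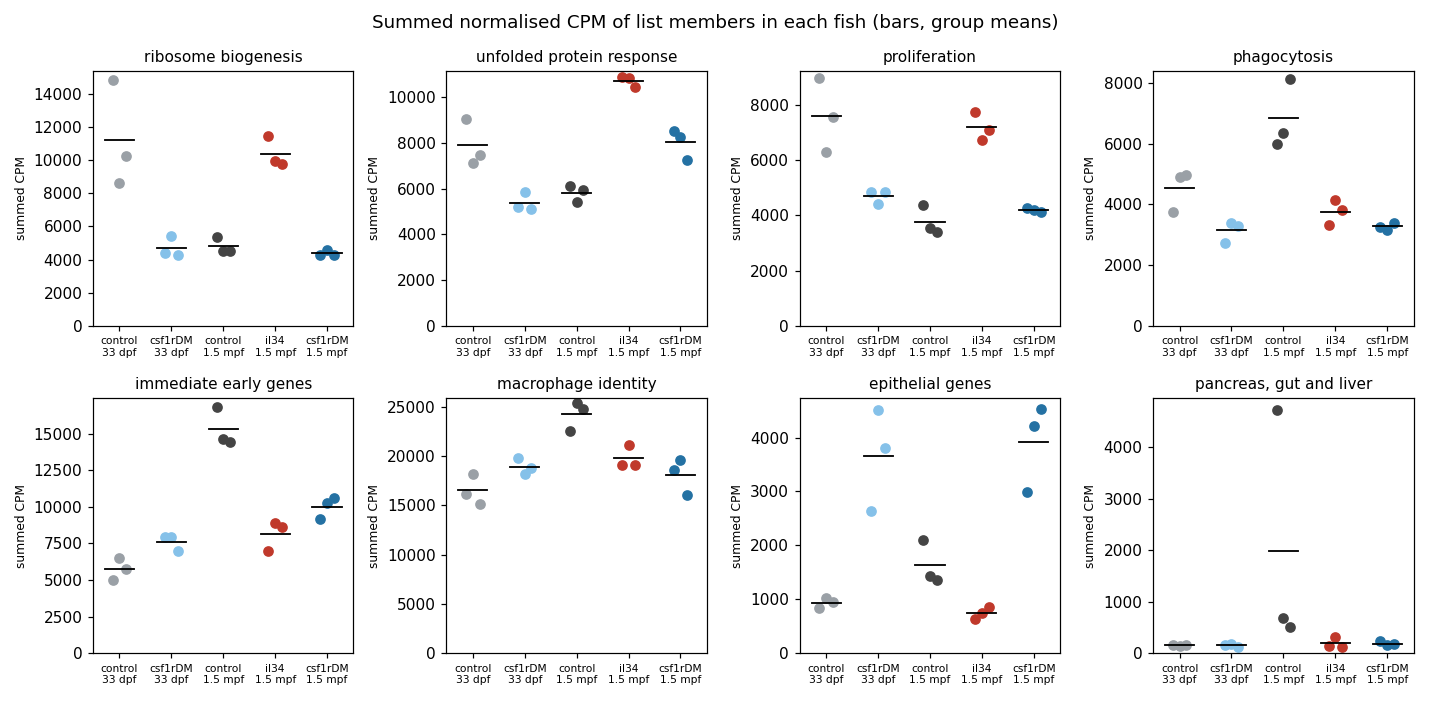
Summed CPM of 8 gene lists in each of the 15 fish, with 1 point a fish, group means as bars, a linear axis from 0 and stages and genotypes along the x axis. In ribosome biogenesis and proliferation the il34 fish lie with the 33 dpf controls, in epithelial genes they lie at 630 to 857 below csf1rDM at 2990 to 4540, and in the last panel control 1 at 1.5 mpf stands alone at 4732.

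Langerhans cells and microglia are the cell types for which Il34 is best known. Of 23 Langerhans and dendritic cell genes 0 were called (median 0.09), with 0.686% called over all genes, and their summed CPM was 3340 to 4470 in il34 fish and 3500 to 4270 in controls. SPOCK3, the highest of them, had 474, 589 and 633 CPM in controls and 574, 828 and 462 CPM in il34 fish (0.14, adjusted p = 0.973). In csf1rDM fish of the same age the summed CPM of this list was 5590 to 6330, above all controls of that age. The paper reports that skin of il34 and csf1rDM fish lacked branched cells, which it proposes may be Langerhans cells. The sum was not lower in csf1rDM fish, so it cannot show whether these cells were lost in il34 fish. The paper also proposes that their loss is masked in bulk RNA. Of 13 microglia genes 0 were called (median -0.87), 2 had a positive change and 5 were below all controls, beside 10.6% of all genes. Their summed CPM was 3080 to 3780 in il34 fish and 4070 to 4220 in controls. The integrin gene itgb2 had 960, 1028 and 1201 CPM in controls and 762, 873 and 621 CPM in il34 fish, all below the controls (-0.50 ± 0.24, adjusted p = 0.458). The lipid carrier gene apoeb, 1 of the 2 with a positive change, had 585, 423 and 267 CPM in controls and 823, 911 and 920 CPM in il34 fish (1.06 ± 0.51, adjusted p = 0.463). The cells were sorted from whole fish, not from skin or brain alone.

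The mutants differed from each other in epithelial genes, which in zebrafish mark metaphocytes, mpeg1+ cells of non-haematopoietic origin in the skin and gut. Of 35 such genes tested, 1 was lower and 0 higher between il34 and control fish (cldne, above), with a median of -1.17, and summed CPM was 630 to 857 against 1360 to 2100. Between il34 and csf1rDM fish 8 were lower and 0 higher, and the csf1rDM sum was 2990 to 4540. Among all genes tested, 0.323% were called lower against controls and 0.867% against csf1rDM fish. The adhesion gene cdh1, E-cadherin, had 91.8, 29.2 and 37.99 CPM in controls, 32.3, 23.6 and 18.4 CPM in il34 fish and 429, 501 and 297 CPM in csf1rDM fish, a difference between the mutants of -4.05 (adjusted p = 0.000825). The junction gene f11r.1 had 187, 153 and 43.7 CPM in controls, 38.2, 16.8 and 12.7 CPM in il34 fish and 229, 330 and 591 CPM in csf1rDM fish (-4.09, adjusted p = 0.0059). Both were named after their values were seen. The cldne call was lost without any 1 of the 6 fish.

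Of 27 cholesterol and fatty acid synthesis genes none was called, yet the median was 1.11 and 7 were above all controls, beside 9.49% of all genes. FASN, fatty acid synthase, had 49.1, 19.4 and 33.0 CPM in controls and 95.6, 31.8 and 91.9 CPM in il34 fish, which overlapped (1.11 ± 0.56, adjusted p = 0.484). Without control 1 the median of this list was 2.96, still with 0 calls. Of 29 interferon genes none was called and the median was 0.00.

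Markers of other cells moved with the groups as follows. Summed CPM was 468 to 546 in controls and 148 to 296 in il34 fish for 17 erythroid genes, 1940 to 2240 and 941 to 1310 for 18 neutrophil genes, 3050 to 3170 and 1920 to 2630 for 26 T and natural killer cell genes, and 652 to 994 and 456 to 533 for 18 B cell genes. Each of these was higher in all controls than in all il34 fish, as was the pancreas, gut and liver sum given above. Muscle (850 to 1070 against 964 to 1240), fibroblast and matrix (2080 to 2960 against 1900 to 5220) and keratin sums (10700 to 13300 against 12200 to 13800) overlapped. No member of these lists was called, and their part in the results was not tested. The 12 genes of the mitochondrial genome had 0 calls and a median of -0.47.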

How the data were processed

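Per the labels and the methods of the study, juvenile fish were dissociated singly with trypsin on ice, GFP+ cells were sorted, and cDNA was made with a kit for low RNA input. The authors deposited one table of raw counts per gene for 15 libraries, 5 groups of 3 fish, with Ensembl identifiers and no normalization. The submitters' processing notes name CASAVA 1.8, cutadapt, STAR 2.5.4b, Cufflinks 2.2.1, HTSeq 0.11.0 and edgeR and the build GRCz10, and the program and annotation behind the counts are not given in the sources used here. The counts do not state strand, so overlapping genes and near-identical copies may share reads. No gene coordinates or sequences were used here. Symbols were matched by identifier (27000 of 35117, 76.9%), and many are upper-case names of orthologues.

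All 15 libraries were fitted together in R 4.3.3 with edgeR 4.0.16: filterByExpr over the 5 groups, TMM factors, robust dispersions, 1 coefficient a group and quasi-likelihood tests, with a gene called at an adjusted p under 0.05 (Benjamini-Hochberg over the 17640 genes tested). The standard error (SE) of a log2 fold change is its size over the square root of F. Totals of the 15 libraries ran from 5488201 to 106374902. Each library is 1 fish, so the spread is between fish.

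Genes were named by a rule: il34, its receptors, csf1a, csf1b and the mpeg1 copies, the 12 higher and 12 lower called genes with the smallest adjusted p, a gene name and no overlap, every called list member and up to 4 uncalled members of a list with the highest mean CPM. Others are marked in the text. The comparison, the gene lists and the tests were chosen with earlier results of these data known, and 8 families were added after the data were seen. Of 799 list symbols 83 were not matched. The summed CPM of a list or family covers all its matched identifiers, also those that were not tested. Alternatives covered scaling, DESeq2 1.42.0, filters, samples in the fit, depth, thresholds, a replicate block and leaving out each fish. Figures were drawn with matplotlib 3.10.9.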

Additional observations from a re-analysis of the deposited data

How the results depend on the processing

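The 121 calls between il34 and control fish came to between 84 and 130 with other scaling factors, other filters on low counts, only the 9 fish at 1.5 mpf, no robust estimation, thinned counts or an added log2 change over 1. Between 66 and 111 of these calls were among the 121. The fewest, 66 of 107, came with only the 9 fish at 1.5 mpf. DESeq2 called 1094, all 121 among them, and 1385 for csf1rDM against control and 1771 for il34 against csf1rDM, in place of 288 and 321. Fits of only the groups compared gave 61, 174 and 184 calls in the same order, and an adjusted p under 0.01 gave 14, 100 and 77. Of the 61 calls, 34 were among the 121. Against the mean of the controls of both ages 32 genes differed from il34 fish. In that comparison the log2 fold changes of CEBPB (0.57), DUSP1 (0.73) and CXCR4 (ENSDARG00000041959; 1.13, adjusted p = 0.0305) turned positive from -1.29, -1.62 and -0.69. Leaving out 1 fish in turn gave 16 to 107 calls for il34 against control, 108 to 219 for csf1rDM against control and 128 to 217 for il34 against csf1rDM, with more genes passing the filter and fewer fish in the test. Replicate numbers name different single fish, and whether same-numbered fish shared a sorting or library batch is not given in the sources used here. Same-numbered il34 and control fish correlated at 0.08, 0.01 and 0.01 after their group means were removed. With 3 fish a group these correlations cannot settle whether a batch was shared, and the main fit did not model one. With the replicate block the counts were 19, 121 and 120. At 3 fish a group and 3 reads worth 0.111 to 0.392 CPM, a gene not called cannot be taken as unchanged, and 1989 genes had an unadjusted p under 0.05.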

Other observations

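Outside the lists, several called genes of RNA handling were higher in il34 fish, while the splicing factor srsf5a was lower (-0.72, adjusted p = 0.046). The higher ones include the nuclear ribonucleoproteins HNRNPAB (ENSDARG00000007960; 0.87 on the log2 scale, adjusted p = 0.0232), its copy ENSDARG00000099865 (1.16, adjusted p = 0.0444) and hnrnpa0l (1.05, adjusted p = 0.0496), the arginine methyltransferase PRMT1 (255, 212 and 124 CPM in controls and 582, 643 and 751 CPM in il34 fish), the splicing factor SF3B4 (adjusted p = 0.0494) and SSB, the La protein (1.58, adjusted p = 0.0437). PRMT1 and SSB were also higher in il34 than in csf1rDM fish (adjusted p = 0.0145 and 0.0286). Enzymes of nucleotide and one-carbon metabolism were among the higher genes as well, with PGD of the pentose phosphate pathway (1.38, adjusted p = 0.0444), HPRT1 of purine salvage (1.49, adjusted p = 0.0444) and MAT2A (ENSDARG00000040334), which makes S-adenosylmethionine (1.41, adjusted p = 0.0488). PRMT1 and HNRNPAB (ENSDARG00000007960) were called in 2 of the 6 fits without 1 fish, and hnrnpa0l, SF3B4, PGD and MAT2A in 1. The copy ENSDARG00000099865, SSB, HPRT1 and srsf5a were called in 0.

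On the lower side, the prostaglandin D2 synthase gene ptgdsb.1 had 61.9, 77.3 and 64.5 CPM in controls and 5.36, 5.56 and 6.66 CPM in il34 fish (-3.53 ± 0.60, adjusted p = 0.0232), with 22.3 to 49.5 CPM in csf1rDM fish. The fatty acid transport gene cpt1ab had 75.5, 76.3 and 58.0 CPM in controls and 2.35, 0 and 0 CPM in il34 fish (adjusted p = 0.0444). The long non-coding RNA malat1 had 17240, 19790 and 22410 CPM in controls and 10840, 13460 and 13100 CPM in il34 fish (-0.67 ± 0.12, adjusted p = 0.0232), and was lower again in csf1rDM fish at 7543 to 8546 CPM, a difference between the mutants of 0.66 (adjusted p = 0.0121). In the 6 fits without 1 fish ptgdsb.1, cpt1ab and malat1 were each called in 1. The genes in these paragraphs were named after their values were seen.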
